A study of Mus musculus with 2 samples.

Results

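A small set of dendritic epidermal T cells (DETCs), the γδ T cells that live in the mouse epidermis, carried most of the Xcl1 and Gzmc transcripts of the whole population. These cells were taken as the DETCs with 5 or more unique molecular identifiers (UMIs, each of which marks 1 mRNA molecule) of Xcl1 and Gzmc together, and are called high cells here. They were 488 of 9088 DETCs, which in turn were part of 11134 barcodes with at least 500 genes and at most 12% mitochondrial UMIs. A barcode was taken as a DETC when it held at least 3 UMIs of Trdc, at least 3 UMIs of Cd3d, Cd3e and Cd3g together, and no UMI of Trac, Cd4, Cd8a or Cd8b1. The comparison group was DETCs with no UMI of either Xcl1 or Gzmc, called zero cells. There were 7278 zero cells in all, and for each high cell the 3 zero cells of the same library with the closest total UMIs were used, which gave 1464 cells.

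The cells came from the ear epidermis of 8-week-old female wild-type FVB/NJ mice that had received an intradermal injection of isotype control antibody or of anti-Skint1 antibody 7 d earlier. The sort kept live cells that were CD45+ and lacked EpCAM and MHC-II, a gate that leaves out keratinocytes and MHC class II-positive Langerhans cells, and 10x 3′ single-cell libraries were made, 1 per treatment. How many mice each library pooled is not given in the labels. An effect of the treatment cannot be told apart from one of the library. The isotype library held 27272211 UMIs over all barcodes and the Skint1 antibody library 32450957.

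DETCs express a near-invariant γδ T cell receptor (TCR), and Skint1, a protein made by keratinocytes, is needed for their selection in the thymus. XCL1 is a chemokine that draws dendritic cells bearing the receptor XCR1. Granzymes are serine proteases that cytotoxic lymphocytes store in granules and release onto target cells, and granzyme C belongs to a cluster of granzyme genes that in the mouse also holds granzyme B. 4-1BB, encoded by Tnfrsf9, is a costimulatory receptor that T cells place on their surface once activated.

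The high cells had the transcripts of DETCs. Fcer1g, the signalling chain that DETC receptors use, was found in 100% of high cells of both libraries. The TCR constant gene Tcrg-C1 was found in 95.2% of high cells under isotype and in 95.5% under Skint1 antibody. The TCR variable gene Trdv4 was found in 93.7% and 80.6% of high cells, against 90.1% and 87.7% of zero cells, and Ptprc, which encodes CD45, in 96.4% and 98.7%. Tcrg-V5, the other variable gene of the canonical receptor, was found in only 19.5% and 20.0% of high cells, against 24.3% and 25.6% of zero cells. In barcodes of αβ T cells, which hold Trac and no Trdc, the shares were 18.9% and 9.64% for Fcer1g, 5.41% and 3.61% for Tcrg-C1, 3.60% and 2.41% for Trdv4 and 0% and 0% for Tcrg-V5 (up to 3.27% and 4.35%), whereas Ptprc, which T cells of both kinds express, was found in 87.4% and 85.5%. Throughout, a pair of values gives the isotype library first and the Skint1 antibody library second.

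Zero cells were matched to high cells in depth, and other classes were not matched. High cells held a median of 4517 and 4915 UMIs, and the matched zero cells 4470 and 4917. Levels are in counts-per-million units (CPM), relative to the UMIs summed over a class of 1 library, after the 10 genes that the rule used had been left out of the sum. Intervals are exact 95% intervals and cover counting error only. Libraries shared 8 barcode sequences in all, 4 among DETCs and none among high cells.

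The share of DETCs that were high was 8.64% (interval 7.77 to 9.57) in the isotype library, or 333 of 3856 cells. In the Skint1 antibody library it was 2.96% (2.52 to 3.46), or 155 of 5232 cells. The intervals do not overlap, but with 1 library per treatment no test of the difference was possible. A count of 5 UMIs is reached more easily in a deep cell, and the median DETC held 4142.5 and 3652 UMIs. Within equal depths, the share below 3000 UMIs was 6.01% and 0.666%, between 3000 and 4000 UMIs 6.86% and 2.59%, between 4000 and 6000 UMIs 9.27% and 3.53%, and at 6000 UMIs or more 13.7% and 8.75%. The isotype library was thus the higher in each of the depth ranges, although at 6000 UMIs or more the intervals overlapped (11 to 16.7 and 6.58 to 11.3). After every DETC had been thinned to 2000 UMIs, 4.33% and 1.41% still held 5 UMIs, with 134 and 202 shallower cells left out.

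**Figure D1:**
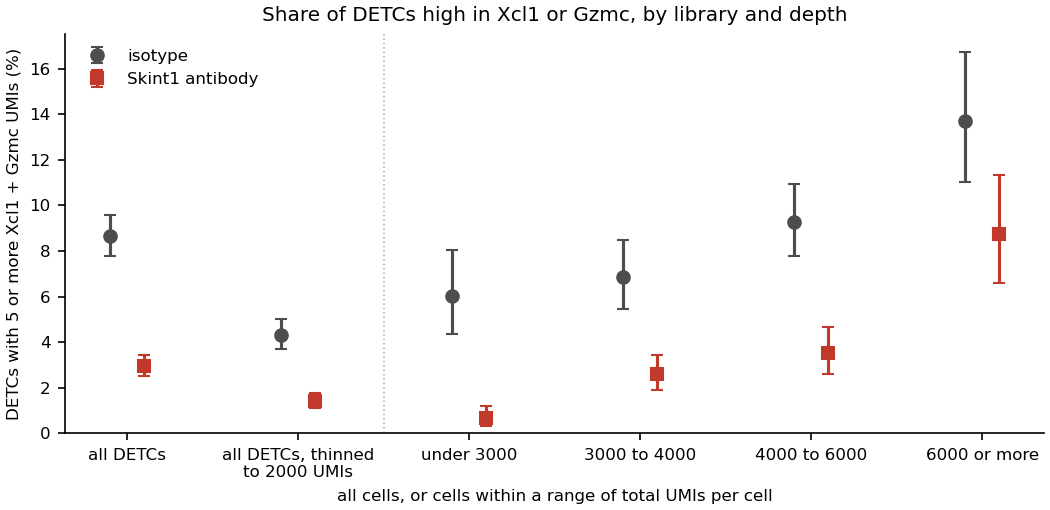
Share of DETCs with 5 or more UMIs of Xcl1 and Gzmc together (y axis, percent) over all cells, after thinning to 2000 UMIs and within ranges of total UMIs per cell (x axis), for the isotype and Skint1 antibody libraries. Points are shares and bars exact 95% intervals for counting error; the share rose with depth in both libraries and was higher in the isotype library in every range, from 6.01% against 0.666% in the shallowest cells to 13.7% against 8.75% in the deepest.

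Xcl1 and Gzmc chose the high cells, so their levels are given as a description. High cells held 82.9% and 65.5% of all Xcl1 UMIs of DETCs and 91.8% and 89.2% of all Gzmc UMIs. The level of Xcl1 over high cells was 2529 and 1633 CPM, and that of Gzmc 2245 and 3430 CPM. These UMIs were spread unevenly. A single cell held up to 223 and 334 UMIs of Xcl1 and up to 494 and 583 UMIs of Gzmc, whereas the median high cell held 7 and 6 UMIs of Xcl1 and 0 and 1 of Gzmc. The 10 cells with most UMIs of both genes held 29.8% and 55.4% of those UMIs.

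Free RNA in the droplets gives stray UMIs, so αβ T cells of the same libraries were read as a background. Barcodes with at least 2 UMIs of Trac and none of Trdc numbered 111 and 83, with a median of 3731 and 3786 UMIs. Of these, 5.41% and 4.82% held an Xcl1 UMI, against 20.7% and 10.6% of DETCs. A Gzmc UMI was held by 5.41% and 6.02% of the αβ T cell barcodes, against 10.2% and 6.46% of DETCs. Of these 4 shares of DETCs, only that for Xcl1 under isotype lay above the interval of the background, which reached 11.4% for isotype Xcl1 and Gzmc, 11.9% for Skint1 antibody Xcl1 and 13.5% for Skint1 antibody Gzmc. At 5 UMIs or more the background was lower, with Xcl1 in 1.80% (0.219 to 6.36) and 0% (0 to 4.35) of αβ T cell barcodes and Gzmc in 0% (0 to 3.27) and 0% (0 to 4.35), although αβ T cells can express either gene. Of DETCs, 6.87% and 2.03% held 5 or more Xcl1 UMIs and 2.80% and 1.13% 5 or more Gzmc UMIs. Only the isotype share for Xcl1 lay above the background interval, and the 111 and 83 barcodes were too few to place the other shares above it.

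The threshold of 5 UMIs cut a continuous range. DETCs with 1 to 4 UMIs numbered 679 and 643. Just outside the threshold, the 74 and 49 cells with 4 UMIs had Gzmb at 159 and 111 CPM and Tnfrsf9 at 231 and 84.6 CPM. Just inside it, the 53 and 28 cells with 5 UMIs had Gzmb at 138 and 212 CPM and Tnfrsf9 at 176 and 95.2 CPM. Cells on either side of the threshold therefore had levels of the same order.

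High cells were of 3 kinds. Cells with Xcl1 and no Gzmc UMI were the most common, at 168 and 73 cells, or 50.5% (44.9 to 55.9) and 47.1% (39.0 to 55.3) of high cells. Cells with at least 1 UMI of each gene, called double cells, numbered 135 and 60, or 40.5% (35.2 to 46.0) and 38.7% (31.0 to 46.9). Cells with Gzmc and no Xcl1 UMI were the rarest, at 30 and 22 cells, or 9.01% (6.16 to 12.6) and 14.2% (9.11 to 20.7). For each kind the intervals of the libraries overlapped. With at least 2 UMIs of each gene asked for, double cells were 31.2% and 22.6% of high cells.

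The genes were carried by the same cell more often than by depth-matched cells that lacked the other gene. Of DETCs with 5 or more Xcl1 UMIs, 36.6% (30.8 to 42.7) and 31.1% (22.5 to 40.9) held a Gzmc UMI, against 7.92% (6.14 to 10.0) and 6.60% (4.13 to 9.92) of matched DETCs with no Xcl1 UMI. Of DETCs with 5 or more Gzmc UMIs, 72.2% (62.8 to 80.4) and 62.7% (49.1 to 75.0) held an Xcl1 UMI, against 17.6% (13.6 to 22.2) and 12.4% (7.96 to 18.2) of matched DETCs with no Gzmc UMI. None of these paired intervals overlapped in either library.

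Xcl1 lies on chromosome 1 and Gzmc on chromosome 14, where Gzmb also lies, while Tnfrsf9 lies on chromosome 4. The promoters of the 4 genes are shown because their transcripts were raised in the same cells. Each runs from 250 bases before the RefSeq start site to 50 bases after it (GRCm38.p6), and Tnfrsf9 has 2 listed start sites. Capitals mark matches on either strand to the letters TGANTCA (AP-1) and TGTGGT (RUNX) and to the 10-letter NF-kB motif, families of transcription factors that act in activated T cells.
Xcl1, chr1:164935473-164935772, minus strand: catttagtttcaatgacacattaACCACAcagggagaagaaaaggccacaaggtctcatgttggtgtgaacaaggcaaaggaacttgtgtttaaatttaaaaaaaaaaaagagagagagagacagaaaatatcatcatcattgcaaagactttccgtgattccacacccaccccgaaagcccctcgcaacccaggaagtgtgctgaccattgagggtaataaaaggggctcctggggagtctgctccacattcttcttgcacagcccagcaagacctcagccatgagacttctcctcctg
Gzmc, chr14:56234608-56234907, minus strand: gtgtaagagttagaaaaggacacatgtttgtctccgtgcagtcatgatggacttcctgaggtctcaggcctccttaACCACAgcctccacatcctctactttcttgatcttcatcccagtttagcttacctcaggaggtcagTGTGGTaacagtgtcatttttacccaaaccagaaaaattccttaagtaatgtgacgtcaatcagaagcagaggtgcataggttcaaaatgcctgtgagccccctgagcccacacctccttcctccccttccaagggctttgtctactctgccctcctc
Gzmb, chr14:56262285-56262584, minus strand: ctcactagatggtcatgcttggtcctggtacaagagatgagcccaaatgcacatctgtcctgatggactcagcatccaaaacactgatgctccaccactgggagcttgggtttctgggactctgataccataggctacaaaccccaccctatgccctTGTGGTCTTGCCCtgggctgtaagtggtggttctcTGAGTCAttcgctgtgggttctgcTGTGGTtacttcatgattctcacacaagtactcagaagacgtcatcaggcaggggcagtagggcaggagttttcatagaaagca
Tnfrsf9, first start, chr4:150919905-150920204, plus strand: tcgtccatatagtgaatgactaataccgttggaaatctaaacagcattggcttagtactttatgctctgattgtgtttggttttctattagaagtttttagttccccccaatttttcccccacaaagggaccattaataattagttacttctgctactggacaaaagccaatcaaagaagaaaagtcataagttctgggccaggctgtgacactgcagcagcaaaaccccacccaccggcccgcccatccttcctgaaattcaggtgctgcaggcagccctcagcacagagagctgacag
Tnfrsf9, second start, chr4:150927749-150928048, plus strand: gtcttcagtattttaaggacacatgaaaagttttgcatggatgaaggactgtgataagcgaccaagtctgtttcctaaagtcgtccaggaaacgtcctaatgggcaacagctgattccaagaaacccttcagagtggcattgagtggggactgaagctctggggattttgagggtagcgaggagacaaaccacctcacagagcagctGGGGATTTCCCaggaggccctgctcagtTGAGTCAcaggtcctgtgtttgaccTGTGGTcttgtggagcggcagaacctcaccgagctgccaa
The Xcl1 window held 1 RUNX match and the Gzmc window 2. The Gzmb window held 1 AP-1 match, 2 RUNX matches and 1 NF-kB match that overlapped a RUNX match. The first Tnfrsf9 window held none of the letters searched, whereas the second held 1 AP-1 match, 1 RUNX match and 2 NF-kB matches that overlapped each other. Over 32851 promoter windows of this kind, 7.81% held the AP-1 letters, 50.8% the NF-kB letters and 16.8% the RUNX letters on either strand. The matches are a description of these windows and not of binding. Granzyme genes are alike, so stretches of 91 bases, about the length of a read, were compared letter for letter. The reference transcripts of Gzmc, Gzmb and Gzmf shared none with another granzyme, and near matches were not looked for. Gzme shared 6 of its 826 such stretches with Gzmd, so its counts are less certain.

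Against depth-matched zero cells, high cells held more transcripts of Gzmb, of Tnfrsf9 and of 13 of 18 tested cytokine and growth factor genes. In a fit with the library as a block over 9476 genes, 305 genes (3.22%) passed an adjusted p of 0.05 as higher in high cells and 121 (1.28%) as lower, by edgeR's quasi-likelihood test with Benjamini-Hochberg adjustment. Of these, 214 and 89 also differed in the same direction beyond counting error in each library taken alone. The fit rests on 4 sums with 1 residual degree of freedom, and edgeR gave every gene the shared spread (infinite prior degrees of freedom), so the p-values do not take up how single genes vary between libraries. With DESeq2 size factors and without the block, where that prior was finite, the counts were 229 and 64 and 109 and 22, and with a robust prior 320 and 122. For some genes the share of cells that held the gene, or the share of its UMIs in the 10 richest high cells, is therefore given as well.

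The call of higher was passed under every one of the alternatives by 10 genes (0.106% of those tested), and that of lower by none, where a gene that an alternative filtered out, such as Lag3, is not counted. With DESeq2 and the setting of at most 1 UMI per cell and gene left aside, the numbers were 35 and 1. Among the 10 were Gzmb, Tnfrsf9, Cd82, Areg, Il2rb, Ptpn6, Klrb1f, Nub1 and Sema6d. Klrb1f, which encodes an activating receptor of natural killer (NK) cells and T cells, was at 51.2 CPM in high and 13.6 CPM in zero cells under isotype, and at 37.6 against 12.6 CPM under Skint1 antibody (log2 ratio 1.84). Sema6d, a semaphorin, was at 247 against 122 CPM and 187 against 116 CPM (0.94). Nub1, an adaptor that targets NEDD8 for degradation, was at 149 against 68.3 CPM and 98.6 against 48.3 CPM (1.14).

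Gzmb encodes granzyme B and had the smallest p of all genes tested. Its level was 513 CPM in high and 47.7 CPM in zero cells of the isotype library, and 224 against 35.3 CPM in the Skint1 antibody library. The log2 ratio was 3.24 (adjusted p = 3.21e-185). A Gzmb UMI was found in 36.6% of high and 10.9% of zero cells, and in 34.8% and 9.46%. Most high cells therefore held no Gzmb UMI, and the 10 richest cells held 49.4% and 55.0% of the UMIs.

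Most other genes of the lytic granule did not pass, although a larger share was higher than the 3.22% over all genes tested. Of 20 tested genes of granzymes and granules, 6 were higher (Gzmb, Gzmf, Gzme, Ctsw, Srgn and Tnfsf10) and none lower, with a median log2 ratio of 0.27, against -0.0020 over all genes tested. Gzmf was at 14.1 against 0.592 CPM and 36.4 against 2.75 CPM (log2 ratio 4.04, adjusted p = 1.4e-15), but in only 1.5% and 1.94% of high cells. Gzma, Gzmd, Gzmk and Gzmn had no UMI in high cells of either library. Ctsw, a cysteine protease of cytotoxic cells, was at 1509.5 against 938 CPM and 1368 against 925 CPM (0.68, adjusted p = 3.23e-34) and was found in nearly every cell of both classes. Perforin, the pore-forming protein encoded by Prf1, did not pass at 532 against 611 CPM and 489 against 499 CPM (adjusted p = 0.687). Nkg7, a granule membrane protein, also did not pass, at 2193 against 2280.1 CPM and 2100.5 against 2377 CPM.

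**Figure D2:**
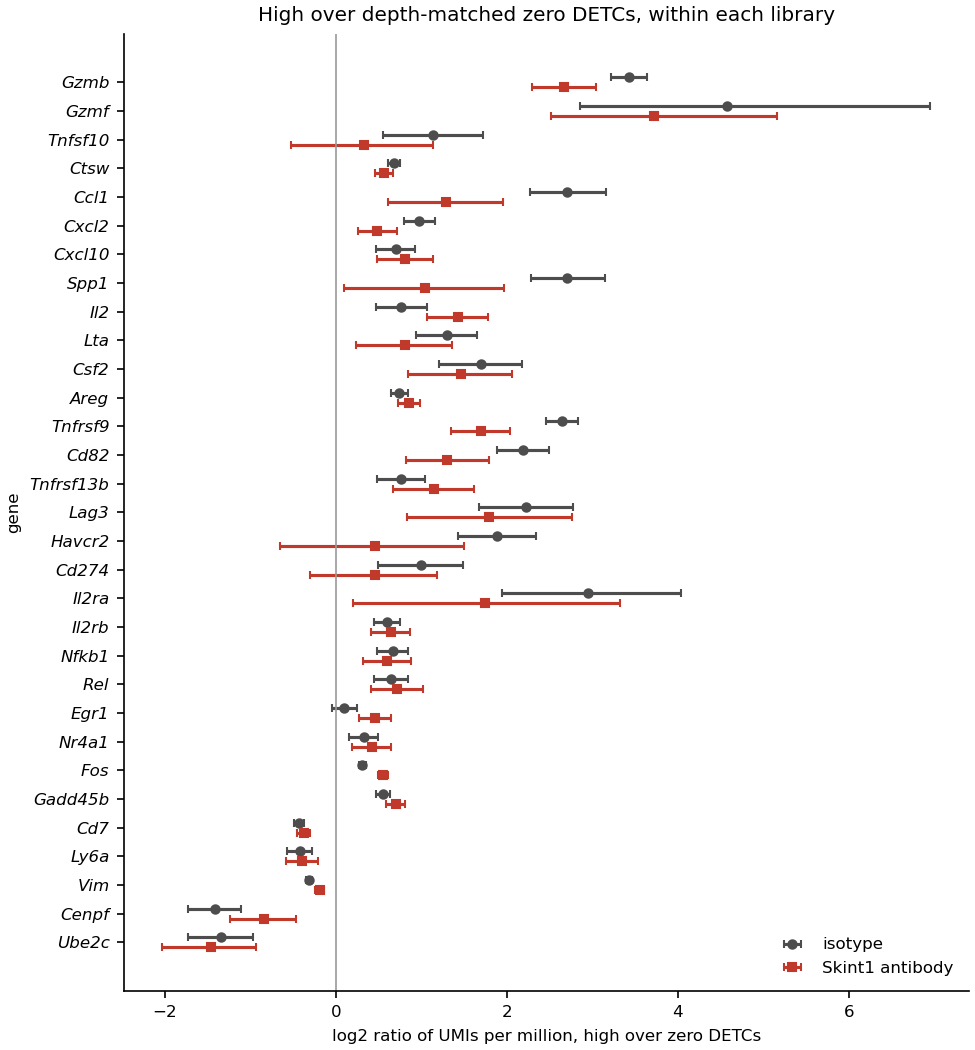
Log2 ratio of the CPM in high over depth-matched zero DETCs (x axis) for genes of the text (y axis) in each library, with exact 95% intervals for counting error. Gzmb lies at 3.42 and 2.66, Havcr2, Tnfsf10 and Cd274 have a Skint1 antibody interval that spans 0, and Cd7, Ly6a, Vim, Cenpf and Ube2c lie below 0.

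Besides Xcl1 itself, 3 of 5 tested chemokines were higher and 1 was lower. Ccl1, a ligand of CCR8, was at 82.4 against 12.6 CPM and 42.2 against 17.3 CPM (log2 ratio 2.27, adjusted p = 2.77e-28). It was found in 9.31% and 7.10% of high cells, and the 10 richest held 77.9% and 97.2% of its UMIs. Cxcl2, which attracts neutrophils, was at 249 against 126 CPM and 275 against 196 CPM (0.81), and Cxcl10, which is induced by interferon, at 141 against 86.8 CPM and 147 against 83.6 CPM (0.79). The 10 richest high cells held 78.7% and 90.6% of the Cxcl2 UMIs and 62.9% and 80% of those of Cxcl10. Ccl27a, a keratinocyte chemokine, was lower at 5.30 against 14.2 CPM and 5.87 against 17.3 CPM. A single zero cell held 19 of 72 and 23 of 44 Ccl27a UMIs, and without cells with keratinocyte or myeloid UMIs its log2 ratio turned from -1.42 to 0.012. It passed in 3 of 14 alternatives.

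Of 18 tested genes of secreted cytokines and growth factors, 13 were higher and 1, Il17a, was lower (median log2 ratio 0.83). Areg, the epidermal growth factor receptor ligand amphiregulin, was the most abundant, at 745 against 445 CPM and 886 against 489 CPM (log2 ratio 0.84, adjusted p = 4.63e-37). It was found in 48.0% of high and 35.9% of zero cells, and in 51.6% and 38.5%. Il2, the T cell growth factor, was at 87.7 against 51.5 CPM and 147 against 54.6 CPM (1.09, adjusted p = 2.59e-14). Csf2, which encodes GM-CSF, was at 45.3 against 14.0 CPM and 54.0 against 19.6 CPM (1.64), and Lta, which encodes lymphotoxin-α, at 71.2 against 29 CPM and 52.8 against 30.2 CPM (1.17). Of the Csf2 UMIs of high cells, 79.2% and 87% lay in 10 cells. Il13, a type 2 cytokine, was at 244 against 167 CPM and 255 against 157 CPM (0.65), found in 45.6% and 53.5% of high cells.

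Among the other secreted factors, Spp1, the matrix protein osteopontin, was at 87.7 against 13.4 CPM and 21.1 against 10.2 CPM (log2 ratio 2.37, adjusted p = 6.78e-27), with 71.8% and 100% of its UMIs in the 10 richest high cells. Ifng, the type 1 cytokine interferon-γ, was at 14.1 against 2.56 CPM and 23.5 against 4.32 CPM (2.48), in 1.5% and 1.94% of high cells. Tnfsf11, which encodes RANKL, was at 14.1 against 3.55 CPM and 19.9 against 2.36 CPM (2.41), with 87.5% and 100% of the UMIs in 10 high cells. Growth factors that act on stroma and vessels were also higher, namely Pdgfa at 35.3 against 14.6 CPM and 30.5 against 15.3 CPM and Vegfa at 87.7 against 49.5 CPM and 93.9 against 54.6 CPM.

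Of cytokines that IL-17 γδ T cells make, Il17a passed as lower, Il22 as higher and Il17f did not pass. Il17f was at 5.30 against 8.28 CPM and 2.35 against 3.93 CPM (log2 ratio -0.62). Il17a had no UMI in high cells, which allows up to 1.77 and 3.52 CPM for 3 counts, and stood at 7.10 and 8.64 CPM in zero cells. A single zero cell held 20 of the 36 Il17a UMIs under isotype and another 20 of the 22 under Skint1 antibody. Il22, which drives epithelial repair, passed as higher (0.50, adjusted p = 0.0219) through the Skint1 antibody library alone, at 114 against 54.6 CPM, while the isotype library had 44.1 against 47.1 CPM. All its UMIs lay in at most 10 high cells of each library. Tnf did not pass, at 78.9 against 78.1 CPM and 107 against 85.2 CPM.

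Of 14 tested costimulatory receptors, 8 were higher and none lower (median log2 ratio 0.56). Tnfrsf9 was at 412 against 65.9 CPM and 170 against 52.6 CPM (log2 ratio 2.39, adjusted p = 2.24e-105). It was found in 60.4% of high and 22.0% of zero cells of the isotype library, and in 43.2% and 19.6% in the Skint1 antibody library. Cd82, a tetraspanin that costimulates T cells, was at 135 against 29.8 CPM and 78.6 against 31.8 CPM (1.94, adjusted p = 2.99e-37). Tnfrsf13b, the BAFF and APRIL receptor TACI, was at 98.9 against 58.2 CPM and 79.8 against 36.1 CPM (0.93). Tnfrsf18, which encodes GITR, was at 236 against 154 CPM and 221 against 160 CPM (0.60), and the early activation marker Cd69 at 589 against 446 CPM and 689 against 442 CPM (0.55). Klrk1, which encodes the stress-ligand receptor NKG2D, did not pass, at 435 against 408 CPM and 371 against 380 CPM.

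Inhibitory receptors were raised in part, with 4 of 10 tested higher and 1 lower. Lag3, a receptor for MHC class II, was at 44.1 against 9.47 CPM and 25.8 against 7.46 CPM (log2 ratio 2.13, adjusted p = 1.22e-13), in 13.2% and 9.68% of high cells. Havcr2, which encodes TIM-3, was at 55.3 against 15 CPM in the isotype library but at 14.1 against 10.2 CPM in the Skint1 antibody library (1.61, adjusted p = 1.39e-09), where its interval spanned 0. Cd160 was at 173 against 130 CPM and 168 against 124 CPM (0.47). Cd274, which encodes PD-L1, was at 34.7 against 17.4 CPM and 28.2 against 20.4 CPM (0.85). Vsir, which encodes VISTA, was lower at 22.4 against 41.0 CPM and 29.3 against 38.9 CPM (-0.65), but its Skint1 antibody interval spanned 0 and it passed in 2 of 16 alternatives.

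Of 22 tested genes that TCR signalling induces, 15 were higher and none lower, with a median log2 ratio of 0.50. Rgs1, a regulator of chemokine receptor signalling, was at 2372 against 1627 CPM and 2163 against 1233 CPM (log2 ratio 0.71, adjusted p = 1.22e-46). Nr4a1, which encodes Nur77, was at 254 against 202 CPM and 276 against 206 CPM (0.41, adjusted p = 0.000257), and Nr4a2 and Nr4a3 had log2 ratios of 0.45 and 0.48. Dusp5, a phosphatase that acts on ERK, was at 240 against 169 CPM and 241 against 141 CPM (0.66). Egr1 and Egr2, transcription factors downstream of ERK, passed at 0.31 and 1.01. Both calls rested on the Skint1 antibody library, where Egr1 was at 417 against 303 CPM and Egr2 at 56.3 against 14.1 CPM. Under isotype Egr1 was at 308 against 287 CPM, with an interval that spanned 0, and Egr2 at 14.7 against 15.2 CPM.

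Of 21 tested immediate early genes, 13 were higher and none lower (median log2 ratio 0.28). Fos was at 3898 against 3146 CPM and 4262 against 2899 CPM (log2 ratio 0.47, adjusted p = 2.84e-27), and Gadd45b at 1047 against 714 CPM and 1215 against 746 CPM (0.67, adjusted p = 4.29e-29). Of 19 tested NF-kB genes, 7 were higher and none lower (median 0.35). Nfkb1, an NF-kB subunit, was at 225 against 142 CPM and 190 against 125 CPM (0.69), Rel, another subunit, at 180 against 115 CPM and 163 against 98.9 CPM (0.72), and the inhibitor Nfkbia at 1545 against 1119 CPM and 1713 against 1094 CPM (0.59). Traf1, an adaptor that binds 4-1BB, was at 257 against 186 CPM and 299 against 183 CPM (0.61).

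Of 18 tested genes of interleukin-2 and STAT5 signalling, 5 were higher and none lower, and 3 of them encode chains of the interleukin-2 receptor. Il2rb, the β chain CD122, was at 295 against 195 CPM and 282 against 181 CPM (log2 ratio 0.66, adjusted p = 1.78e-11), found in 75.4% of high and 57.7% of zero cells and in 71.0% and 54.8%. Il2ra, the α chain CD25, was at 18.2 against 2.37 CPM and 10.6 against 3.14 CPM (2.56), in only 4.50% and 3.87% of high cells. Il2rg, the common γ chain, was at 624 against 484 CPM and 547 against 476 CPM (0.34). The feedback inhibitor Socs1 and the kinase Pim1 had log2 ratios of 0.51 and 0.62.

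**Figure D3:**
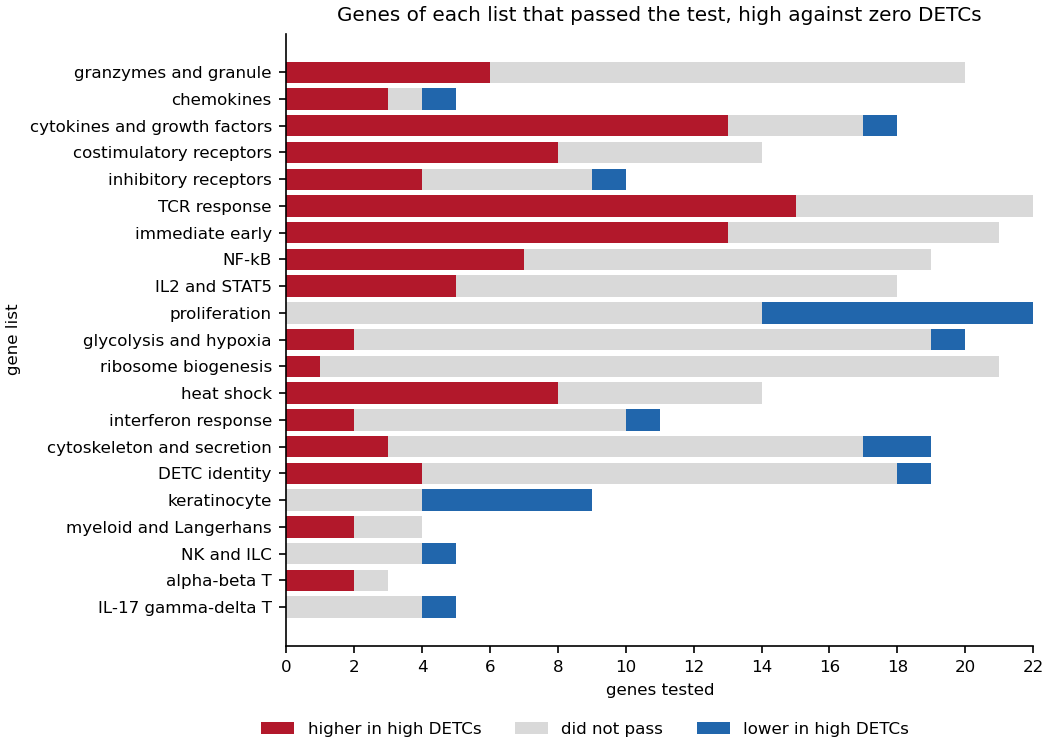
Number of tested genes of each gene list (x axis) that were higher (red), lower (blue) or did not pass (grey) in high against depth-matched zero DETCs, by edgeR's quasi-likelihood test. Chemokines, cytokines, costimulatory receptors, TCR response, immediate early, heat shock and αβ T cell genes have more genes in red than in grey and blue together. The proliferation, keratinocyte, NK and innate lymphoid cell and IL-17 γδ T cell lists hold blue but no red.

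Ptpn6, which encodes the phosphatase SHP-1, was at 274 against 124 CPM and 153 against 87.9 CPM (log2 ratio 1.07, adjusted p = 1.12e-22), found in 58.9% of high and 38.1% of zero cells and in 45.2% and 33.5%. It was 1 of 4 higher members among 19 tested genes of DETC identity, with Itgae, Tyrobp and Trdv4, against 1 lower member, Cd7. Itgae, the αE chain of the integrin that binds E-cadherin, was at 666 against 552 CPM and 575 against 530 CPM (0.25). Trdv4 was at 1199 against 899 CPM under isotype and at 713 against 746 CPM under Skint1 antibody, so its call (0.26, adjusted p = 0.00031) rested on the isotype library. Trdc, a gene of the rule and so not tested, stood at 5714 against 4211 CPM and 3978 against 3782 CPM. Ptprc, Tcrg-C1, Fcer1g, Ahr, Id2 and Itgb7 did not pass.

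Among the genes that were lower in high cells, Cd7, a surface glycoprotein that most DETCs express, was at 1922 against 2593 CPM and 2059 against 2669 CPM (log2 ratio -0.36, adjusted p = 6.35e-13). Nearly every cell held it, at 97.9% of high and 99.3% of zero cells and at 98.1% and 99.6%, so the difference lay in the level. Ly6a, the surface protein Sca-1, was at 279 against 373 CPM and 340 against 446 CPM (-0.36), found in 46.5% of high and 64.2% of zero cells and in 63.9% and 72.3%. Vim, which encodes the intermediate filament vimentin, was at 4266 against 5289 CPM and 4464 against 5088 CPM (-0.21), and Gmfg, an actin regulator, at 61.2 against 123 CPM and 78.6 against 130 CPM (-0.85).

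Proliferation genes were lower or did not pass, with 8 of 22 tested lower and none higher (median log2 ratio -0.12). Ube2c, an enzyme of mitotic exit, was at 39.4 against 99.8 CPM and 38.7 against 106 CPM (-1.34). Cenpf, a kinetochore protein outside the list, was at 60.0 against 160 CPM and 79.8 against 142 CPM (-1.14). Top2a, the topoisomerase of dividing cells, was at 96.5 against 179 CPM and 146 against 223 CPM (-0.73). Cells with 2 or more UMIs of mitotic genes were 7.21% of high and 9.21% of matched zero cells in the isotype library, and 13.5% and 12% in the Skint1 antibody library, so the share of dividing cells was not lower in both libraries. Against all zero cells without matching, Birc5 turned to a log2 ratio of 0.01, Ccnb2 to 0.17 and Cdk1 to 0.27.

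Heat shock genes were higher in 8 of 14 tested and lower in none (median log2 ratio 0.23). Hspa8, a chaperone that all cells make, was at 1982 against 1703 CPM and 1914 against 1474 CPM (0.34, adjusted p = 3.68e-10), and the cochaperone Dnajb1 at 695 against 497 CPM and 593 against 450 CPM (0.49). Genes of glycolysis and hypoxia, ribosome biogenesis, interferon response and the cytoskeleton mostly did not pass, with 2, 1, 2 and 3 higher of 20, 21, 11 and 19 tested and 1, 0, 1 and 2 lower. H2-K1, an MHC class I heavy chain, was at 784 against 451 CPM and 763 against 422 CPM (0.87), the metal-binding protein Mt1 at 222 against 95.3 CPM and 174 against 94.2 CPM (1.14), and Cd83, an activation marker, at 81.8 against 27.8 CPM and 57.5 against 25.1 CPM (1.48).

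Markers of other cell types differed between the classes as well. Myeloid and Langerhans cell genes gave 2 or more UMIs in 11.4% and 12.3% of high cells, against 4.60% and 5.16% of matched zero cells, and in 17.8% and 23.3% of double cells. Their summed level was 111 against 67.9 CPM and 156 against 55.0 CPM. Of 4 tested, Cd74 and H2-Ab1, genes of MHC class II presentation, were higher, at 33.5 against 16.0 CPM and 76.3 against 8.24 CPM for Cd74, while Cd207, Csf3r, Itgam and Csf1r, which define Langerhans cells, neutrophils and macrophages, had no UMI in high cells. Cd207, Itgam and Csf1r also had no UMI in matched zero cells, and Csf3r had none there under isotype, so their absence did not set the classes apart. Of the 14 listed genes, 8 and 6 had a UMI in high cells. Without cells that held 2 or more keratinocyte or myeloid UMIs, 206 genes were higher and 54 lower. Cells marked by their doublet scores were 3.60% and 8.39% of high cells, against 3.62% and 4.74% of all zero cells. Without them, 297 genes were higher and 100 lower, of which 276 and 90 were among the 305 and 121.

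Keratinocyte genes were lower in 5 of 9 tested and higher in none, and 10 and 9 of 11 listed had a UMI in high cells. Their summed level was 199 against 286 CPM and 45.8 against 568 CPM, and 1 high cell gave 259 of the 338 UMIs in the isotype library. Krt14, a basal keratin, was at 64.1 against 92.5 CPM and 7.04 against 275 CPM, with UMIs in 2.40% and 3.87% of high and 3% and 3.44% of zero cells, so its difference lay in a few cells. Apoe, a lipid carrier, likewise stood at 25.9 against 154 CPM and 2.35 against 52.2 CPM, and 1 zero cell alone held 519 of its 783 UMIs in the isotype library. Of NK and innate lymphoid cell genes, 1 of 5 tested was lower and none higher, with a summed level of 278 against 231 CPM and 242 against 236 CPM. Of αβ T cell genes, Trbc1 and Trbc2 of 3 tested were higher, by 0.16 and 0.21, Trbc1 under isotype alone and in 1 of 16 alternatives, with a summed level of 2805 against 2479 CPM and 2381 against 2225 CPM. Of IL-17 γδ T cell genes 1 of 5 was lower, with a summed level of 73.0 against 90.9 CPM and 101 against 93.8 CPM. What part these differences play in the calls of other genes was not tested.

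Within the DETCs, Gzmb and Tnfrsf9 had their highest level in the cells with most Xcl1 and Gzmc UMIs. From cells with 0 UMIs to cells with 5 to 9, 10 to 29 and 30 or more, Gzmb in the isotype library stood at 66.1, 171, 422 and 1603 CPM. Under Skint1 antibody it stood at 59.4, 183, 215 and 409 CPM. Tnfrsf9 stood at 70.8, 236, 378 and 947 CPM under isotype and, under Skint1 antibody, at 53.1, 111, 121 and 534 CPM. Both genes were already above the level of zero cells at 1 to 2 UMIs, at 113 and 155 CPM for Gzmb and at 123 and 82.9 CPM for Tnfrsf9. The course was not steady, since at 3 to 4 UMIs Gzmb was at 149 and 123 CPM, the latter below the level at 1 to 2 UMIs. Tnfrsf9 at 3 to 4 UMIs was at 213 and 89.2 CPM.

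Other genes took different courses over the same cells. Cd7 fell from 2714 CPM at 0 UMIs to 1464 CPM at 30 or more under isotype and from 3130 to 1638 CPM under Skint1 antibody. Cd82 stayed between 32.6 and 41.6 CPM up to 4 UMIs in the isotype library and reached 340 CPM at 30 or more, against 142 CPM in the Skint1 antibody library. Ptpn6 in the isotype library went from 130 to 384 CPM, whereas in the Skint1 antibody library it was at 75.4 CPM at 0 UMIs, at 167 CPM at 5 to 9 and at 97.9 CPM in the 23 cells with 30 or more. Ccl1 at 1 to 2 UMIs in the Skint1 antibody library was at 129 CPM, and 1 cell gave 284 of those UMIs. These ranges were not matched for depth and were not tested, and the bin of 30 or more held 57 and 23 cells.

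**Figure D4:**
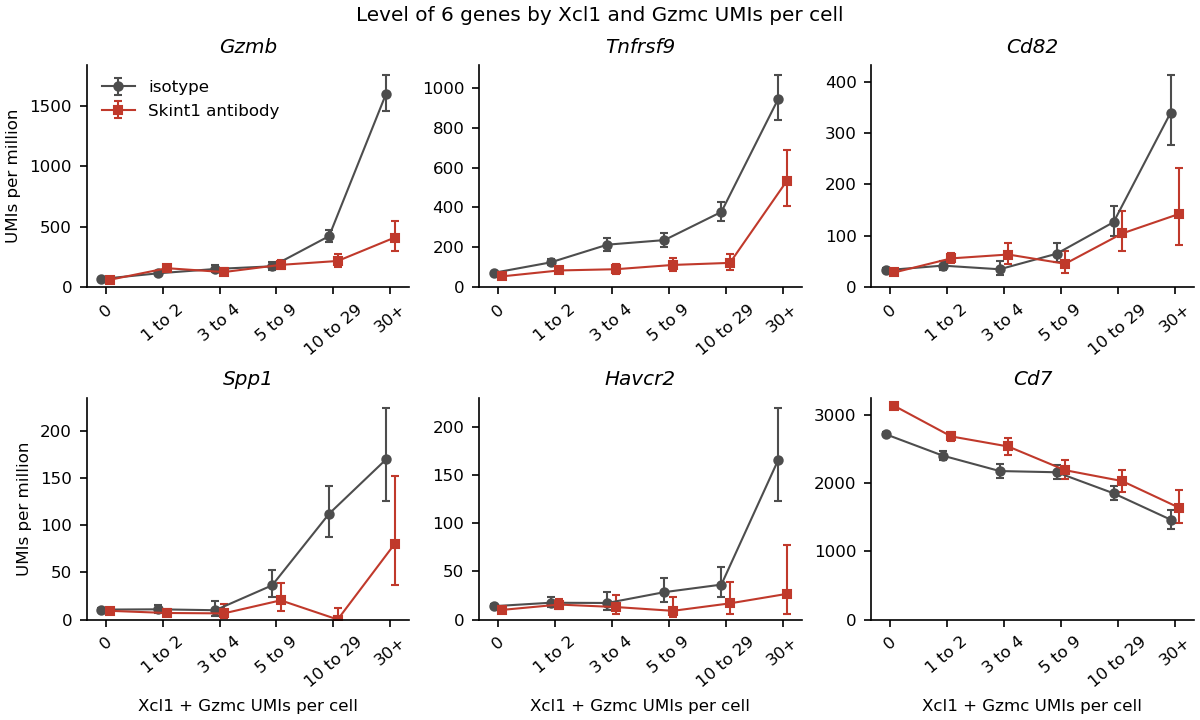
Level in CPM of 6 genes (y axes, from 0) in DETCs grouped by their UMIs of Xcl1 and Gzmc together (x axes), in each library, with exact 95% intervals for counting error. Gzmb and Tnfrsf9 rise to 1603 and 947 CPM under isotype and to 409 and 534 CPM under Skint1 antibody, while Cd7 falls in both.

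Cells with Xcl1 alone and cells with Gzmc alone could be compared over 3874 genes, and none (0%) passed the test of the difference by edgeR, with 146 genes at an unadjusted p under 0.05. DESeq2 also called 0, with 9 at that unadjusted p. Gzmc-only cells numbered only 30 and 22, and in simulated counts the edgeR test found 46.9% of genes set 2-fold apart. A gene that did not pass may therefore still differ. Gzmb was at 347 CPM in Xcl1-only and 264 CPM in Gzmc-only cells of the isotype library, but at 126 and 563 CPM under Skint1 antibody (log2 ratio of Xcl1-only over Gzmc-only -0.77, adjusted p = 0.99). The interval of that ratio was -0.09 to 0.91 under isotype and -2.73 to -1.59 under Skint1 antibody. Tnfrsf9 was at 351 against 159 CPM and 95.5 against 102 CPM (0.75, adjusted p = 0.99). Areg also differed in direction, at 797 against 489 CPM and 686 against 1957 CPM. With up to 1 UMI of the other gene allowed, 5 genes were higher in Xcl1-only cells, among them the cell division genes Stmn1, Pclaf and Nusap1. In that setting 7 were lower, among them Il22, Gzmb, Cxcl2, G0s2 and Ptgs2.

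Double cells stood above both other kinds for some genes and, under Skint1 antibody, below Gzmc-only cells for Gzmb and Areg. Tnfrsf9 was at 541 and 272 CPM in double cells, against 351 and 95.5 CPM in Xcl1-only and 159 and 102 CPM in Gzmc-only cells. Cd82 was at 205 and 121 CPM in double cells, against at most 90.9 CPM in the other kinds. Ctsw was at 1869.7 and 1642 CPM, against 1254 and 1143 CPM in Xcl1-only and 1269 and 1274 CPM in Gzmc-only cells. Il2 was at 123 and 241 CPM, against 69.7 and 80.0 CPM and against 26.4 and 73.8 CPM, but 1 cell of the Skint1 antibody library held 46 of the Il2 UMIs. In the other direction, under Skint1 antibody Gzmb was at 227 CPM in double against 563 CPM in Gzmc-only cells, and Areg at 777 against 1957 CPM. Under isotype double cells were the higher, at 766 against 264 CPM for Gzmb and 737 against 489 CPM for Areg. Lta was at 88.4 and 53.3 CPM in double and 112 and 83.1 CPM in Gzmc-only cells. Its intervals overlapped in each library, with 17 and 9 Lta UMIs in Gzmc-only cells. The summed level of myeloid genes was 151 and 249.8 CPM in double, 82.7 and 49.0 CPM in Xcl1-only and 79.3 and 231 CPM in Gzmc-only cells. That of keratinocyte genes was 418 and 56.1 CPM in double, 44.9 and 31.0 CPM in Xcl1-only and 46.3 and 64.6 CPM in Gzmc-only cells. Under isotype 1 double cell held 259 of the 293 keratinocyte UMIs of its kind. The median double cell held 8 and 5 UMIs of Xcl1 and 6 and 6.5 of Gzmc. In Xcl1-only cells the median was 8 and 8 UMIs of Xcl1, and in Gzmc-only cells 9.5 and 8 of Gzmc. Median depth was 4556 and 5189 UMIs in double, 4425.5 and 4666 in Xcl1-only and 4782.5 and 4400.5 in Gzmc-only cells. The differences between the kinds were not tested. Nor was the part that these counts, depth or the myeloid and keratinocyte UMIs play in them.

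**Figure D5:**
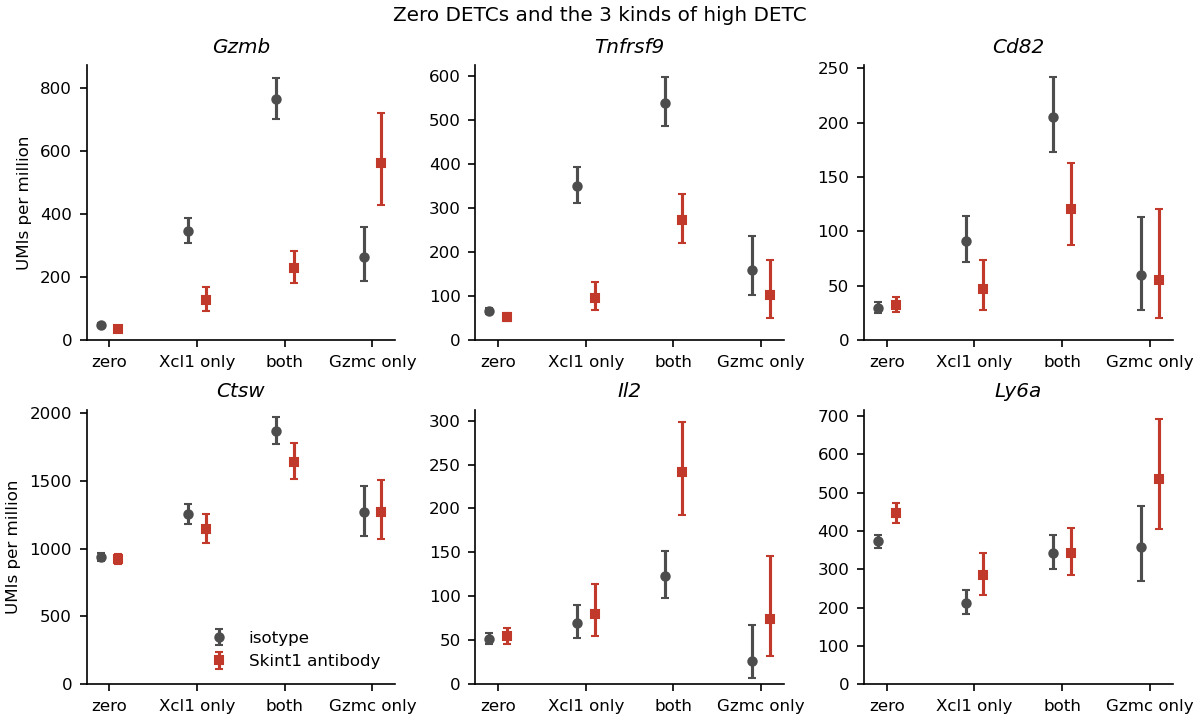
Level in CPM of 6 genes (y axes, from 0) in depth-matched zero DETCs and in high DETCs with Xcl1 only, both genes or Gzmc only (x axes), in each library, with exact 95% intervals for counting error. Of the 4 classes, Tnfrsf9, Cd82, Ctsw and Il2 are highest in cells with both genes in each library, and Gzmb is highest in Gzmc-only cells of the Skint1 antibody library at 563 CPM.

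The high cells of the Skint1 antibody library held less of several effector transcripts than those of the isotype library. With 1 library per treatment no test was made, and a gene is counted when it differed by at least 2-fold with an interval beyond 0. Of 3121 genes at 50 CPM or more in either library, 18 (0.577%) were lower with Skint1 antibody and 5 (0.16%) higher. These counts were not stable, at 48 lower and 25 higher after thinning and 60 lower and 68 higher with at most 5% mitochondrial UMIs. Gzmb was at 513 CPM with isotype and 224 CPM with Skint1 antibody, a log2 ratio of -1.19 (-1.43 to -0.97). In zero cells of the same libraries it was at 47.7 and 35.3 CPM (-0.43). A Gzmb UMI was found in similar shares of high cells, at 36.6% and 34.8%. At 5 to 9 UMIs of Xcl1 and Gzmc per cell, Gzmb was not lower with Skint1 antibody, at 171 and 183 CPM. It was lower at 10 to 29 UMIs, at 422 and 215 CPM, and at 30 or more, at 1603 and 409 CPM. Of the 871 Gzmb UMIs under isotype, 121 lay in 1 cell. Tnfrsf9 was at 412 and 170 CPM (-1.28, -1.54 to -1.02), against 65.9 and 52.6 CPM in zero cells (-0.32). The interval of these ratios lay below that of the ratio in zero cells, which was -0.80 to -0.08 for Gzmb and -0.62 to -0.03 for Tnfrsf9.

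Other markers of the high cells went the same way. Spp1 was at 87.7 and 21.1 CPM (-2.05) and Havcr2 at 55.3 and 14.1 CPM (-1.97). Ccl1 was at 82.4 and 42.2 CPM (-0.96), Ptpn6 at 274 and 153 CPM (-0.84) and Cd82 at 135 and 78.6 CPM (-0.78). Ptpn6 was also lower in zero cells, at 124 and 87.9 CPM (-0.49, -0.72 to -0.27), an interval that overlapped that in high cells (-1.13 to -0.56). The 5 genes with the largest fall by ratio were Gal, Slc16a11, Rbp4, Krt14 and Spp1. For Krt14, 1 isotype cell held 102 of the 109 UMIs, and zero cells went the other way, at 92.5 and 275 CPM (1.57). Gal, the neuropeptide galanin, was at 55.3 and 1.17 CPM, and Rbp4, a retinol carrier, at 85.9 and 8.21 CPM, with all of the Rbp4 UMIs in at most 10 high cells of each library.

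Higher in the high cells of the Skint1 antibody library were Egr2 at 14.7 and 56.3 CPM (1.94), G0s2, an inhibitor of lipolysis, at 19.4 and 57.5 CPM (1.57), Il22 at 44.1 and 114 CPM (1.37), Cd74 at 33.5 and 76.3 CPM (1.19) and Rrm1, a subunit of ribonucleotide reductase, at 31.2 and 66.9 CPM (1.10). A single cell of the Skint1 antibody library held 67 of the 97 Il22 UMIs. Of the 65 Cd74 UMIs under Skint1 antibody, 23 lay in 1 cell. Egr2 stood at 15.2 and 14.1 CPM in zero cells (-0.10). Zero cells went the other way for G0s2, at 31.8 and 11.4 CPM (-1.48), and for Cd74, at 16.0 and 8.24 CPM (-0.95). For Il22 and Rrm1 the ratio in zero cells was 0.21 and 0.24. Il2 was at 87.7 and 147 CPM (0.74), below the 2-fold limit, and 1 cell of the Skint1 antibody library held 46 of its 125 UMIs. Areg and Cd7, a raised and a lowered gene of the high cells, moved little between treatments, by 0.25 and 0.10.

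Xcl1 and Gzmc went opposite ways between treatments within the high cells. Xcl1 was lower with Skint1 antibody by a log2 ratio of -0.63 (-0.72 to -0.54) and Gzmc higher by 0.61 (0.54 to 0.68), values that the choice of the cells shapes. Neither direction was stable. With at most 5% mitochondrial UMIs the ratio of Xcl1 became 0.18, and without the 10 cells richest in both genes in each library that of Gzmc became -0.24.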

How the data were processed

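Sorted epidermal cells from 2 libraries (1 per treatment) had been sequenced with the 10x 3′ chemistry, and the authors aligned the reads to the mm10 mouse genome and made UMI counts per gene and barcode with CellRanger 3.0.2. The deposited matrices hold these whole-number counts, not normalized. Cells and classes were chosen from the counts as described above, and the members and gene lists were chosen with earlier results of these data known. Counts were summed per library and class, the 10 genes of the rule were left out, and the sums of high and depth-matched zero cells were tested with edgeR 4.0.16 (R 4.3.3; filterByExpr, TMM, quasi-likelihood test, library as a block, Benjamini-Hochberg adjustment, threshold 0.05). The library is the block because high and zero cells of a library come from the same mice. Xcl1-only and Gzmc-only cells were tested likewise. With 1 library per treatment, treatments were compared by ratios with exact conditional intervals and no test. Scripts were tested on simulated counts. Doublets were scored with Scrublet (scanpy 1.11.5) and kept: its own threshold marked 6 and 6 barcodes, so in an alternative the 177 and 330 barcodes with the highest scores were left out.

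Named genes were the 7 markers given for these cells, up to 4 tested genes of each list with the largest ratio, the 10 largest ratios in each direction at 50 CPM or more and, for treatments, the 5 largest in each direction. Other named genes, of the lists or of the calls, were chosen after their values were seen. Alternatives were other cell limits, thinning to 2000 UMIs, no matching, thresholds of 3 and 10 UMIs, cells left out, DESeq2 1.42.0 and its size factors, no count filter and no block. Counting at most 1 UMI per cell and gene, a robust spread in edgeR and leaving out cells with keratinocyte or myeloid UMIs were chosen after seeing the data. One gene that passed is not reported here.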

Additional observations from a re-analysis of the deposited data

How the results depend on the processing

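The count of genes higher and lower in high cells was 305 and 121 and depended on the processing more than its direction did. It was 218 and 46 with at most 2500 genes per cell, 88 and 16 with at most 5% mitochondrial UMIs, 154 and 45 after thinning to 2000 UMIs, 182 and 41 against all zero cells, 174 and 57 at 10 UMIs or more, 189 and 56 without the 10 highest cells, 226 and 45 without cycling cells, 229 and 64 with DESeq2 size factors, 48 and 4 with DESeq2, 61 and 17 with no filter on low counts, 27 and 0 with at most 1 UMI per cell and gene (750 genes at an unadjusted p under 0.05), and 206 and 54 without cells with keratinocyte or myeloid UMIs. It rose to 343 and 149 at 3 UMIs or more and to 320 and 122 with a robust spread. Without the replicate block, that is the library, it was 109 and 22, and the Xcl1-only against Gzmc-only comparison gave 0 and 2 in place of 0 and 0. That comparison gave 3 and 1 with at most 2500 genes and 5 and 7 with at most 1 UMI of the other gene. Of 79 named genes that passed, 979 values over all settings kept their side of the threshold, 362 lost the call and 17 changed sign. The log2 ratio turned against all zero cells for Birc5 (0.0061), Ccnb2 (0.17), Cdca8 (0.21), Cdk1 (0.27) and Nusap1 (0.18), after thinning for Ccnb2 (0.65), Cdk1 (0.43) and Pttg1 (0.031), with at most 2500 genes for Cdca8 (0.049) and Cdk1 (0.50), with at most 5% mitochondrial UMIs for Hspa1a (-0.093) and Hspa1b (-0.034), with at most 1 UMI per cell for Cd7 (0.013), Lgals7 (0.0038) and Vim (0.029), without keratinocyte or myeloid cells for Ccl27a (0.012), and without the isotype library for Trdv4 (-0.065, against 0.41 without the Skint1 antibody library). The share of high DETCs was 4.33% and 1.41% after thinning, 12.9% and 5.24% at 3 UMIs and 4.59% and 1.40% at 10 UMIs. Genes at least 2-fold higher and lower with Skint1 antibody numbered 25 and 48 after thinning, 6 and 32 with at most 2500 genes and 68 and 60 with at most 5% mitochondrial UMIs, where Xcl1 turned to 0.18. Gzmc turned to -0.24 without the 10 highest cells. The causes were not tested. With 1 library per treatment, no setting gives a spread between libraries of a treatment.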
